A study of Mus musculus with 10 samples.

Results

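The S100 genes followed here were S100a8, S100a9, S100a1, S100a4, S100a6, S100a10, S100a11 and S100a13. Their 10 non-control probes were found by the gene name in the array tables, and the 8 genes are among 32236 genes or unnamed transcripts tested. All 8 passed the filter of being well above background on at least 2 arrays. S100a8 and S100a9 are called the myeloid members and the other 6 the broad members. The 8 genes were selected on the measured hybrid and unfused levels of these same arrays, so differences between hybrid and unfused cells are descriptions for every member. Counts of members past a threshold in those comparisons are printed only beside the share of all genes past it and support nothing. The comparison of GFAP-Cre hybrids with R26Y hybrids was tested.

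S100 proteins are small calcium sensors built from a pair of EF-hand loops, and most work as dimers inside the cell. S100A8 and S100A9 pair into calprotectin, an abundant protein of the cytosol of neutrophils and monocytes. When released, it acts as an alarmin, a danger signal read by the receptors TLR4 and RAGE, and it binds zinc and manganese away from microbes. The broad members are found in many cell types and act through partner proteins: S100A10 and S100A11 bind annexins at membranes, S100A4 binds non-muscle myosin, S100A6 binds the ubiquitin ligase adaptor CACYBP, S100A1 binds ryanodine receptors of muscle, and S100A13 takes part in the unconventional export of FGF1 and IL-1 alpha.

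RNA came from cells sorted out of the midbrain of MPTP-treated mice. MPTP is a toxin of dopaminergic neurons. Lineage-negative bone marrow cells, called HSPCs in the labels (haematopoietic stem and progenitor cells), were grafted on one side at day 3 after the last injection, and the brain was dissociated 1 week later. R26Y hybrids were RFP+YFP+ cells from R26Y recipients that had received HSPCs with Cre and RFP; R26Y is a YFP reporter that Cre switches on. GFAP-Cre hybrids and FoxA2-Cre hybrids were RFP+YFP+ cells from recipients expressing Cre under a Gfap (astrocyte) or a Foxa2 (ventral midbrain) promoter, grafted with HSPCs carrying R26Y. Unfused cells were RFP+ only: 1 set was labelled as R26Y and GFAP-Cre together and is called pooled unfused, and the other came from FoxA2-Cre recipients. YFP in these designs reports Cre recombination, so a fused cell whose partner never expressed the Cre of a GFAP-Cre or FoxA2-Cre recipient would be sorted as unfused. Each of the 5 groups had 2 arrays, each from 2 pooled mice, and no untreated or ungrafted cells were analysed here. The labels used here give no age, sex or strain.

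Slide 1 held the R26Y hybrids, GFAP-Cre hybrids and pooled unfused cells, and slide 2 held the FoxA2-Cre hybrids and FoxA2-Cre unfused cells. On slide 2 both hybrid arrays were in 1 row and both unfused arrays in the other, so row and cell type cannot be told apart there. A spot counted as measured when the scanner table marked it well above background. On slide 1 the share of such spots was 84.1% and 64.3% for R26Y hybrids, 81.4% and 82.4% for GFAP-Cre hybrids, and 82.8% and 86.7% for pooled unfused cells. On slide 2 it was 34.6% and 19.8% for hybrids, against 49.2% and 34.8% for unfused cells. Saturation was marked on 0 spots. Spearman's rho between replicates across genes was 0.68 in R26Y hybrids, 0.90 in GFAP-Cre hybrids, 0.95 in pooled unfused cells, 0.67 in FoxA2-Cre hybrids and 0.72 in FoxA2-Cre unfused cells. Of the HSPC markers tested, 3 to 7 of 7 were well above background on each array.

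The 60-base probes of S100a8 and S100a1 are shown because each reads the protein's best known part. The capitals mark 36 bases that code for an EF-hand loop pattern of 12 residues, found in 16 of 55681 probes (0.029%). The probe of S100a8 lies at chr3:90473778-90473837 (mm9, plus strand) and that of S100a1 at chr3:90315191-90315250 (mm9, minus strand); their sequences are as follows.
S100a8: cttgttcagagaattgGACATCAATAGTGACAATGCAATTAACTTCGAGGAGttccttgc
S100a1: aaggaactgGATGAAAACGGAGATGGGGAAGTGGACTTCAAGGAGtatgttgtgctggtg

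None of the 10 probes shared 20 bases with a probe of another gene. The S100a9 probe lies at chr3:90496573-90496632 (mm9, minus strand). By RefSeq's mouse annotation (GRCm38.p6), S100a1, S100a13, S100a4, S100a6, S100a8 and S100a9 lie within 184.7 kb of chromosome 3. S100a8 and S100a9 lie 22595 bases apart and are transcribed from opposite strands. S100a11 starts 2.82 Mb beyond S100a9, with S100a10 next to it. S100a1 and S100a13 overlap by 98 bases at their starts, on opposite strands.

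Since S100a8 and S100a9 encode the 2 subunits of calprotectin, the 250 bases before each start are shown side by side (RefSeq, GRCm38.p6). The S100a8 window is chr3:90668821-90669070, plus strand, and the S100a9 window is chr3:90695722-90695971, minus strand. Capitals mark matches on either strand to 4 motifs: TTGCNNAA for C/EBP factors, GAGGAA for the myeloid factor PU.1, TGANTCA for AP-1, which reads the same on both strands, and TATAAA for the TATA box.
S100a8: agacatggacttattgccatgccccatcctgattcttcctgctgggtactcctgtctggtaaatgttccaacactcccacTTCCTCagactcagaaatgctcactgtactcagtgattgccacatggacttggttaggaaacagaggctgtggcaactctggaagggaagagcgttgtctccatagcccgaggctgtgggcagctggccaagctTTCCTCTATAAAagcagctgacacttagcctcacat
S100a9: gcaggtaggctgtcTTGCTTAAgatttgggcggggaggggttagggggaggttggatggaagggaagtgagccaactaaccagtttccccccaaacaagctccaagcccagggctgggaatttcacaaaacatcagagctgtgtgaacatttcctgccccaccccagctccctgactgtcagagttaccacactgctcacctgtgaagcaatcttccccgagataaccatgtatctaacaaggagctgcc

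The S100a8 window held GAGGAA matches 170 and 36 bases before the start, the second running directly into a TATAAA match at 30 bases. The S100a9 window held 1 TTGCNNAA match at 236 bases, and no motif of the 4 was found in both windows. Windows with a match made up 9.56% for TTGCNNAA, 23.3% for GAGGAA, 6.75% for TGANTCA and 12.4% for TATAAA of 32851 mouse promoter windows. Windows were given for 7 of the 8 members. S100a4 held TATAAA at 31 bases, S100a11 held GAGGAA at 153 and TGANTCA at 136 and 38 bases, and S100a1, S100a6 and S100a13 held none of the 4.

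S100a9, the larger subunit of calprotectin, was the member with the widest range of levels, 10.4 on the log2 scale over the 10 arrays. Levels are given as log2 of the processed signal minus the array's 75th percentile, and can be compared between arrays but not between probes. In R26Y hybrids the S100a9 level was −2.78 and −4.93, and in GFAP-Cre hybrids −0.94 and −4.00, against 0.18 and −0.28 in pooled unfused cells. In FoxA2-Cre hybrids it was −6.78 and −3.61, against 3.20 and 3.61 in FoxA2-Cre unfused cells. All 6 hybrid arrays lay below every unfused array of their slide, beside 0.468% of all genes. Neither FoxA2-Cre hybrid array had S100a9 well above background. The background level, here an array's lowest signal marked well above background, was −5.02 and −3.47 on those 2 arrays. On the FoxA2-Cre unfused arrays it was −5.99 and −4.90. A spot above this level was not always marked well above background.

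The fitted S100a9 difference, hybrids minus unfused cells, was −3.80 ± 1.33 on the log2 scale (SE, n = 2 arrays each) for R26Y hybrids. For GFAP-Cre hybrids it was −2.42 ± 1.33, a level 5.36-fold lower. For FoxA2-Cre hybrids it was −8.60 ± 1.33, and with the background level in place of the hybrid values S100a9 was at least 201-fold lower. Over all hybrids, with slide as a covariate, it was −5.46 ± 1.20. The GFAP-Cre value rests on unlike replicates: it was −0.89 without GFAP-Cre hybrid replicate 2 and −3.95 without replicate 1. In sorted populations such as these, fewer S100a9-expressing cells and less S100a9 RNA per cell cannot be told apart.

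S100a8, the other subunit of calprotectin, had levels of −4.06 and −8.78 in R26Y hybrids and −3.40 and −3.99 in GFAP-Cre hybrids, against −1.30 and −2.10 in pooled unfused cells. All 4 hybrid arrays of slide 1 were below both unfused arrays. This held for 19.6% of all genes in R26Y hybrids and 14.4% in GFAP-Cre hybrids, each taken alone. The lower R26Y hybrid value was not well above background. In FoxA2-Cre hybrids the S100a8 level was −6.91 and −5.45, against 0.69 and −6.44 in FoxA2-Cre unfused cells. On slide 2 only FoxA2-Cre unfused replicate 1 had S100a8 well above background, so the groups overlapped. That array and its replicate had similar S100a9 levels and unlike S100a8 levels.

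The fitted S100a8 difference was −4.72 ± 2.27 for R26Y hybrids (SE, n = 2 each), and −2.36 without R26Y hybrid replicate 2, the array with the fewest measured spots on slide 1. It was −1.99 ± 2.27 for GFAP-Cre hybrids, a level 3.98-fold lower. For FoxA2-Cre hybrids it was −3.30 ± 2.27. No bound is given there, because S100a8 was measured on only 1 of the 2 unfused arrays. Without FoxA2-Cre unfused replicate 1 the S100a8 difference on slide 2 was 0.26, and without replicate 2 it was −6.87.

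**Figure D1:**
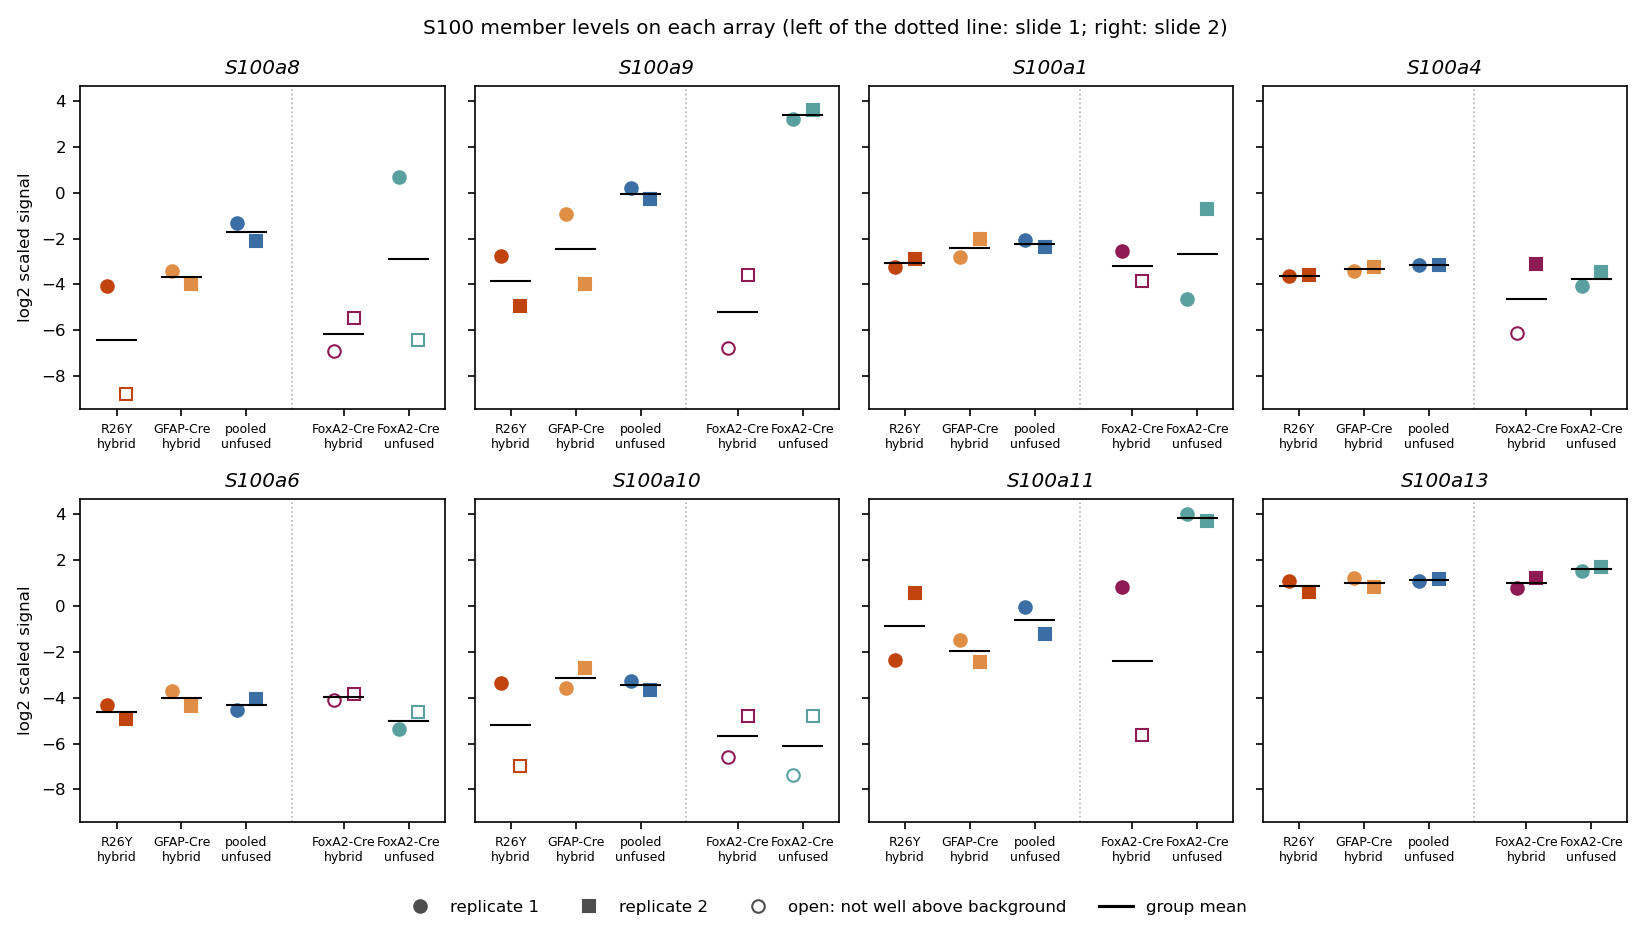
Log2 scaled signal of each S100 member (y axis) on each array, by group (x axis), slide 1 left and slide 2 right of the dotted line. Circles are replicate 1, squares replicate 2, lines group means, and open symbols were not well above background; heights are not comparable between panels. S100a9 is lower on all 6 hybrid arrays than on the unfused arrays of the same slide, beside 0.468% of all genes. S100a13 spans 1.08 over the 10 arrays.

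S100a11, which binds annexin A1, was the broad member with the widest range, 9.65 on the log2 scale. Its level was −2.36 and 0.58 in R26Y hybrids and −1.49 and −2.44 in GFAP-Cre hybrids, against −0.03 and −1.21 in pooled unfused cells. In FoxA2-Cre hybrids it was 0.84 and −5.64, the second not well above background, against 4.01 and 3.69 in FoxA2-Cre unfused cells. The groups did not overlap on slide 2 (10.6% of all genes lower there) or between GFAP-Cre hybrids and pooled unfused cells (14.4% lower). R26Y hybrids spanned the pooled unfused values. The fitted S100a11 difference was −0.27 ± 1.91 for R26Y hybrids, −1.35 ± 1.91 for GFAP-Cre hybrids and −6.25 ± 1.91 for FoxA2-Cre hybrids (SE, n = 2 each). Leaving out FoxA2-Cre hybrid replicate 1 gave −9.49 for FoxA2-Cre, and leaving out replicate 2, the array on which S100a11 was not well above background, gave −3.01. With the background level in place of values below it, an alternative chosen after seeing the data, it was −5.17.

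S100a10, also called p11, which forms a tetramer with annexin A2 at the cell surface, was well above background on 5 of the 6 arrays of slide 1 and on none of slide 2. Its level was −3.38 and −6.98 in R26Y hybrids and −3.59 and −2.70 in GFAP-Cre hybrids, against −3.27 and −3.66 in pooled unfused cells. The low R26Y hybrid value, on replicate 2, was the one not well above background, and the other 5 arrays lay between −3.66 and −2.70. The fitted S100a10 difference for R26Y hybrids was −1.71 ± 1.32, and 0.09 without that array. For GFAP-Cre hybrids it was 0.32 ± 1.32. No S100a10 difference is read for slide 2, where neither group was well above background on any array.

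S100a6, calcyclin, had levels of −4.33 and −4.95 in R26Y hybrids and −3.71 and −4.35 in GFAP-Cre hybrids, against −4.55 and −4.07 in pooled unfused cells. These 3 groups overlapped, with fitted differences of −0.33 ± 0.55 for R26Y hybrids and 0.27 ± 0.55 for GFAP-Cre hybrids. On slide 2 the S100a6 level was −4.09 and −3.83 in FoxA2-Cre hybrids, against −5.36 and −4.64 in FoxA2-Cre unfused cells. S100a6 was the 1 member of 8 whose hybrid values lay above the unfused values there, beside 26.5% of all genes, but it was well above background only on FoxA2-Cre unfused replicate 1, so the difference has no measured value on the hybrid side.

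S100a13 was well above background on all 10 arrays and varied least. Its level was 1.08 and 0.62 in R26Y hybrids and 1.20 and 0.84 in GFAP-Cre hybrids, against 1.08 and 1.19 in pooled unfused cells. R26Y hybrid replicate 1 and pooled unfused replicate 1 were equal at this precision. In FoxA2-Cre hybrids the S100a13 level was 0.79 and 1.21, against 1.53 and 1.70 in FoxA2-Cre unfused cells. The FoxA2-Cre hybrid arrays lay below both unfused arrays, beside 10.6% of all genes, by a fitted −0.62 ± 0.49 (SE), a level 1.53-fold lower. The differences were −0.29 ± 0.49 for R26Y hybrids and −0.12 ± 0.49 for GFAP-Cre hybrids.

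S100a4 and S100a1 each had a pair of probes, and the probes of a pair gave different differences. The S100a4 probe used for the gene is at chr3:90409734-90409793 (mm9, plus strand), and the other lies downstream at chr3:90409908-90409967 and contains the polyadenylation signal AATAAA. On the upstream probe the S100a4 level was −3.65 and −3.58 in R26Y hybrids and −3.41 and −3.23 in GFAP-Cre hybrids, against −3.17 and −3.14 in pooled unfused cells. On slide 2 it was −6.13 and −3.11 in FoxA2-Cre hybrids, the first not well above background, against −4.05 and −3.44 in FoxA2-Cre unfused cells. The 6 arrays of slide 1 thus lay close together, with all 4 hybrid arrays just below the unfused ones. Each hybrid type taken alone, this held for 19.6% of all genes in R26Y hybrids and 14.4% in GFAP-Cre hybrids.

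On the downstream probe the S100a4 level was −9.42 and −8.65 in R26Y hybrids and −6.06 and −9.03 in GFAP-Cre hybrids, against −4.96 and −5.52 in pooled unfused cells. In FoxA2-Cre hybrids it was −7.31 and −5.32, against −4.85 and −3.01 in FoxA2-Cre unfused cells. As read, every hybrid value lay below every unfused value of its slide, beside 0.468% of all genes on the probe used for each. On slide 2 this separation was not measured, since both hybrid values were not well above background. The background level of FoxA2-Cre hybrid replicate 2, −3.47, lay above the −4.85 of FoxA2-Cre unfused replicate 1. Of the 6 hybrid arrays, 1, GFAP-Cre replicate 1, had the downstream probe well above background, against all 4 unfused arrays. The differences on the downstream probe were −3.80 ± 1.14 for R26Y hybrids (at least 3.11-fold lower by the background bound), −2.31 ± 1.14 for GFAP-Cre hybrids and −2.38 ± 1.14 (SE) for FoxA2-Cre hybrids (at least 1.24-fold lower). On the upstream probe they were −0.46 ± 0.90, −0.16 ± 0.90 and −0.87 ± 0.90 (SE) in the same order of hybrids.

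The upstream S100a1 probe, the one printed above, read −3.24 and −2.87 in R26Y hybrids and −2.80 and −2.04 in GFAP-Cre hybrids, against −2.08 and −2.36 in pooled unfused cells. In FoxA2-Cre hybrids it read −2.56 and −3.85, the second not well above background, against −4.62 and −0.72 in FoxA2-Cre unfused cells, whose replicates enclosed both hybrid values. The fitted differences were −0.84 ± 1.16, −0.20 ± 1.16 and −0.53 ± 1.16 (SE) for R26Y, GFAP-Cre and FoxA2-Cre hybrids. The downstream S100a1 probe at chr3:90314959-90315018 (mm9, minus strand) was well above background on 4 of 10 arrays. It was brightest on R26Y hybrid replicate 2, at −2.03, and read −6.29 on replicate 1, against −7.19 and −6.42 in pooled unfused cells.

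**Figure D2:**
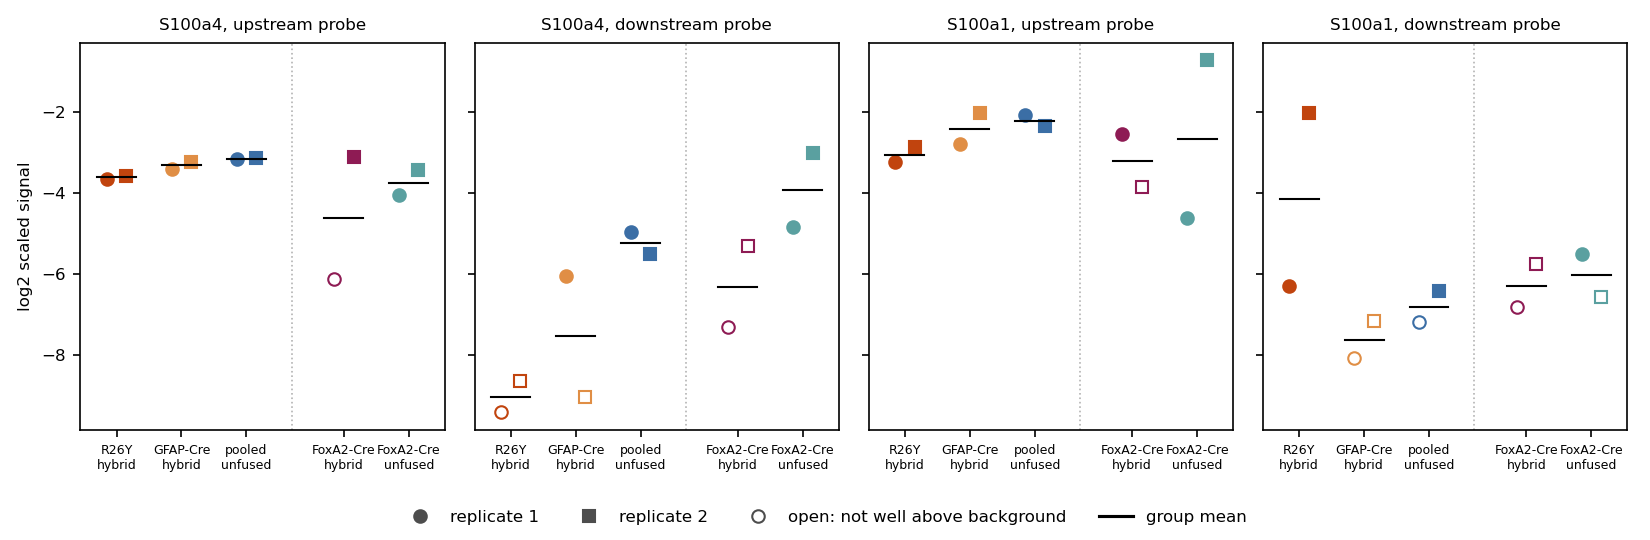
Log2 scaled signal (y axis) of the upstream and downstream probes of S100a4 and S100a1 on each array, by group (x axis); circles are replicate 1, squares replicate 2, lines group means, and open symbols were not well above background. The downstream S100a4 probe reads lower on every hybrid array than on the unfused arrays of its slide, beside 0.468% of all genes on the probe used for each. On slide 2 both hybrid values were not well above background, so the separation there was not measured. The upstream probe stays within −3.65 to −3.14 on slide 1.

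Setting the 2 myeloid members against the 6 broad ones on the same array removes the array's scaling. The mean level of S100a8 and S100a9 minus the mean level of the broad members was −0.78 and −3.99 in R26Y hybrids and 0.13 and −1.68 in GFAP-Cre hybrids, against 1.44 and 1.02 in pooled unfused cells. On slide 2 it was −3.89 and −1.19 in FoxA2-Cre hybrids, against 4.59 and −0.05 in FoxA2-Cre unfused cells. All hybrid arrays lay below all unfused arrays of their slide in this measure. Its difference was −3.61 for R26Y hybrids, −2.00 for GFAP-Cre hybrids and −4.81 for FoxA2-Cre hybrids, beside a pooled SD between replicates of 2.06. With 1 array left out in turn, the R26Y value was −5.22 to −2.01 and the GFAP-Cre value −2.91 to −1.10. On the FoxA2-Cre hybrid arrays 0 of 2 myeloid and 3 and 2 of 6 broad members were well above background, against 2 and 1 myeloid and 5 and 4 broad members on the FoxA2-Cre unfused arrays. With the background level in place of values below it the FoxA2-Cre value was −4.22. It was −2.50 without FoxA2-Cre unfused replicate 1 and −7.13 without replicate 2.

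**Figure D3:**
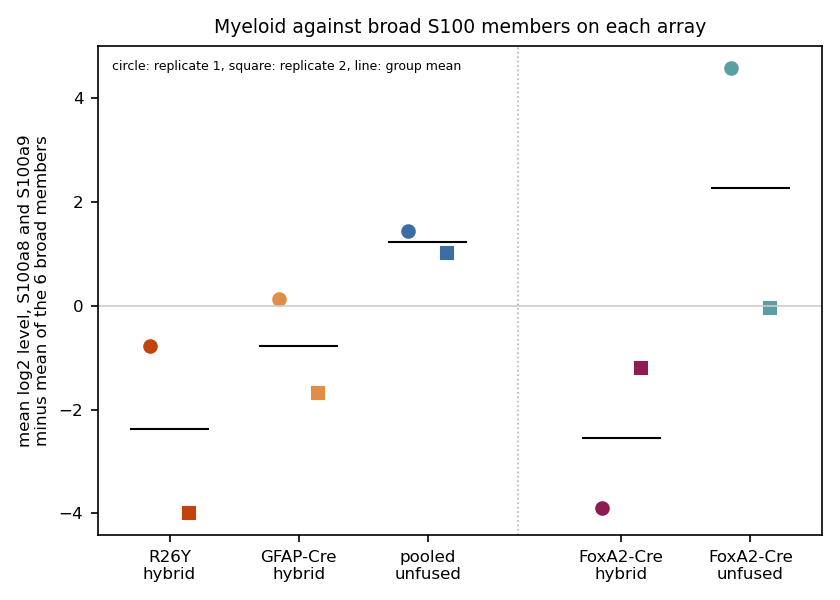
Mean log2 level of S100a8 and S100a9 minus the mean of the 6 broad members (y axis) on each array, by group (x axis), slide 1 left and slide 2 right of the dotted line; circles are replicate 1, squares replicate 2 and lines group means. Hybrid arrays range from −3.99 to 0.13, and unfused arrays from −0.05 to 4.59.

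Counted over the members, 8 of 8 R26Y differences, 6 of 8 GFAP-Cre differences and 6 of 8 FoxA2-Cre differences from unfused cells were below 0. Of all genes, 64.2%, 46.6% and 36.5% were below 0 in these comparisons. The median member difference was −0.65 in R26Y hybrids, −0.18 in GFAP-Cre hybrids and −0.74 in FoxA2-Cre hybrids, beside medians over all genes tested of −0.26, 0.03 and 0.36. The 2 myeloid members had a median of −4.26, −2.21 and −5.95 in these comparisons, and the 6 broad members −0.40, −0.14 and −0.57. Members with both hybrid arrays below both unfused arrays numbered 5 of 8 in R26Y hybrids (S100a8, S100a9, S100a1, S100a4 and S100a13; 19.6% of all genes), 4 of 8 in GFAP-Cre hybrids (S100a8, S100a9, S100a4 and S100a11; 14.4% of all genes) and 3 of 8 in FoxA2-Cre hybrids (S100a9, S100a11 and S100a13; 10.6% of all genes). S100a9 was the 1 of 8 that did not overlap on either slide, beside 0.468% of all genes. At limma's adjusted threshold of 0.05, S100a9 in FoxA2-Cre hybrids was the 1 member called, beside 0.478% of all genes called lower there and 0.53% called in either direction. S100a9 was called in 9 of 23 alternatives, and not with the slide row, slide column or replicate block. The other hybrid comparisons called 0 members and 0% of all genes. At an unadjusted p under 0.05, the members numbered 2 over all hybrids (3.11% of all genes), 1 in R26Y hybrids (1.39%), 0 in GFAP-Cre hybrids (1.63%) and 2 in FoxA2-Cre hybrids (8.63%). Since these contrasts chose the members, nothing is read from these counts.

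**Figure D4:**
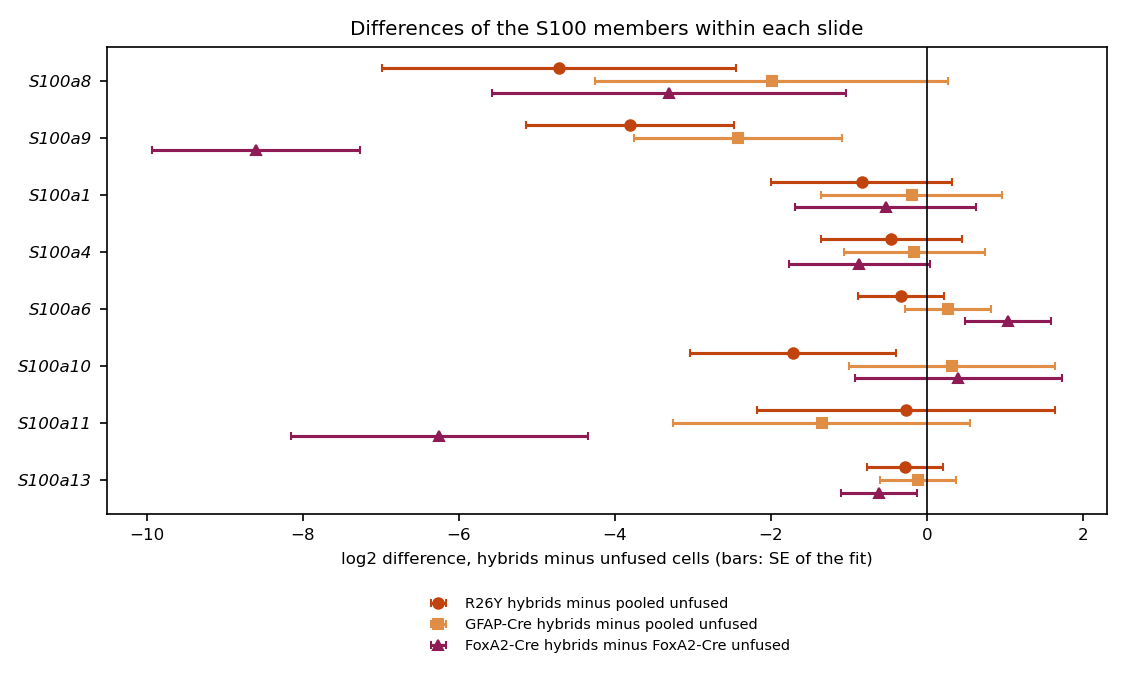
Fitted log2 difference, hybrids minus unfused cells of the same slide (x axis), for each S100 member (y axis); circles are R26Y, squares GFAP-Cre and triangles FoxA2-Cre hybrids, and bars are the SE of the fit. S100a9 lies below 0 in all 3 comparisons, at −3.80, −2.42 and −8.60, and S100a11 at −6.25 in FoxA2-Cre hybrids. On slide 2 S100a8, S100a9, S100a6 and S100a10 were not well above background in hybrids, and S100a10 was not in unfused cells either.

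GFAP-Cre hybrids and R26Y hybrids share slide 1, and this comparison asks whether hybrids made in recipients with Cre limited to Gfap-expressing cells differ from those of R26Y recipients, where any fused cell type can turn yellow. S100a8 was 2.73 ± 2.27 higher in GFAP-Cre hybrids on the log2 scale (SE, n = 2 each; 95% interval −2.53 to 7.98). S100a9 was 1.38 ± 1.33 higher (−1.71 to 4.48) and S100a10 2.03 ± 1.32 higher (−1.03 to 5.10). S100a11 was −1.08 ± 1.91 different (−5.50 to 3.34), and S100a1, S100a4, S100a6 and S100a13 differed by 0.17 to 0.64. Scaled to the percentile over all probes, S100a4 differed by −0.07 and S100a13 by −0.19. On the probe used for each gene, no member passed limma's moderated test (adjusted p = 1.00 for each of the 8), none had an unadjusted p under 0.05, and 0% of all genes were called, with 2.75% at an unadjusted p under 0.05. S100a8, S100a1 and S100a4 had both GFAP-Cre hybrid arrays above both R26Y hybrid arrays, 3 of 8 members, beside 20.2% of all genes. The downstream S100a1 probe read the other way, at −8.07 and −7.17 in GFAP-Cre hybrids, neither well above background, against −6.29 and −2.03 in R26Y hybrids. Its difference was −3.46 ± 1.26 (SE; limma unadjusted p = 0.026, adjusted p = 1.00), at least 6.38-fold lower by the background bound. The S100a8, S100a9 and S100a10 differences were 0.37, 0.31 and 0.23 without R26Y hybrid replicate 2. The intervals are wide enough to hold differences of several log2 units in either direction for S100a8 and S100a11, so the 2 hybrid types are not shown to be alike.

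Across the 5 groups, the mean S100a9 level was −3.85 ± 1.52 in R26Y hybrids, −2.47 ± 2.16 in GFAP-Cre hybrids, −5.19 ± 2.24 in FoxA2-Cre hybrids, −0.05 ± 0.33 in pooled unfused cells and 3.40 ± 0.29 in FoxA2-Cre unfused cells (SD, n = 2 each). Groups are ordered within a slide only. On slide 1 pooled unfused cells stood first, and GFAP-Cre and R26Y hybrids followed in this order. Each hybrid group there overlapped its upper neighbour within the SDs. On slide 2 FoxA2-Cre unfused cells stood above FoxA2-Cre hybrids, in which S100a9 was well above background on neither array. For S100a8 pooled unfused cells had the highest mean of slide 1. On slide 2 FoxA2-Cre unfused cells had the higher mean, with an SD of 5.04 that reached the FoxA2-Cre hybrid mean. S100a8 was well above background on neither FoxA2-Cre hybrid array and on 1 of 2 R26Y hybrid arrays, so the hybrid groups are given no order. For S100a11 the FoxA2-Cre unfused cells stood above the FoxA2-Cre hybrids, at 3.85 ± 0.23 against −2.40 ± 4.58. The groups of slide 1 each overlapped their neighbour within the SDs. The 2 unfused groups lie on different slides and came from different recipients, and these cannot be told apart.

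Of the other S100 genes on the array, 9 of 9 listed were tested and none passed the threshold in any comparison. Their median difference over all hybrids was 0.27, beside 0.03 for all genes, with 3 of 9 below 0, beside 47.8% of all genes. S100a3, S100a5 and S100a16 were well above background on all 10 arrays, with differences over all hybrids of −0.03 ± 0.35, 0.27 ± 0.31 and −0.56 ± 0.53 (SE). S100b, the astrocyte and Schwann cell member used as a glial marker, was well above background on 4 arrays, all on slide 1: R26Y hybrid replicate 1, GFAP-Cre hybrid replicate 1 and both pooled unfused arrays. S100a14 differed by 0.30 ± 0.57 over all hybrids and was well above background on 9 arrays. S100z, S100a7l2, S100a7a and S100g were well above background on 5, 7, 2 and 2 arrays, with differences of −0.18, 0.49, 0.19 and 1.55. Of the S100-fused epidermal genes, 4 of 7 were tested and had a median of 0.00 over all hybrids, with none past the threshold.

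Among 10 genes for receptors and signalling of S100a8 and S100a9, all tested, none passed the threshold in any comparison. Over all hybrids 4 of 10 were below 0, beside 47.8% of all genes. Cd14, a co-receptor of TLR4, differed by 1.01 ± 0.42 over all hybrids and by 1.87 ± 0.59 in FoxA2-Cre hybrids (limma adjusted p = 0.43). Tlr4 itself differed by −3.16 ± 2.27 over all hybrids and was well above background on 6 arrays. Rela, a subunit of NF-kappaB, differed by −1.03 ± 0.59, and Bsg, another receptor of S100A9, by 1.04 ± 0.71.

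Of the binding partners of the broad members, 12 of 13 were tested and none passed the threshold. Anxa2, which encodes the partner of S100A10, had the smallest p of the list. Its level was −5.82 and −6.33 in R26Y hybrids and −8.12 and −5.92 in GFAP-Cre hybrids, against −3.89 and −5.60 in pooled unfused cells. On GFAP-Cre hybrid replicate 1, at −8.12, it was not well above background. In FoxA2-Cre hybrids it was −5.85 and −5.48, neither well above background, against −0.42 and 2.08 in FoxA2-Cre unfused cells. Anxa2 was thus lower on every hybrid array than on the unfused arrays of its slide, beside 0.468% of all genes. The fitted difference was −1.33 ± 1.06, −2.27 ± 1.06 and −6.49 ± 1.06 (SE) for R26Y, GFAP-Cre and FoxA2-Cre hybrids, the last at least 33.7-fold lower by the background bound (limma adjusted p = 0.058). Cacybp, Anxa11 and Ryr2 differed by 0.54 ± 0.35, 0.67 ± 0.54 and −0.60 ± 0.49 over all hybrids.

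Among the other alarmins, 4 of 5 were tested and none passed. Hmgb1, a chromatin protein released by dying cells, differed by −1.57 ± 0.57 over all hybrids and by −2.89 ± 0.73 in FoxA2-Cre hybrids (limma adjusted p = 0.27). Hmgn1, Hmgb2 and Il33 differed by −0.76 ± 0.57, 1.34 ± 1.30 and −0.07 ± 1.53 over all hybrids. Of 8 myeloid transcription factor genes, all tested, none passed and 5 were below 0 over all hybrids, beside 47.8% of all genes. Irf8 differed by −1.16 ± 0.49, Spi1, which encodes PU.1, by −0.62 ± 0.40, Cebpb by −1.66 ± 1.69 and Cebpd by 0.78 ± 0.47.

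The mean levels of neutrophil and microglia markers also differed between hybrid and unfused arrays, and their part in the S100a8 and S100a9 values was not tested. Shifts on 1 slide were not particular to these lists. On slide 2 the HSPC, endothelium and pericyte, erythroid, dopaminergic neuron and other S100 lists were also higher on both hybrid arrays than on both unfused arrays. The lists of binding partners and other alarmins were lower there on both hybrid arrays. On slide 1 the neuron, oligodendrocyte and S100-fused epidermal lists were lower on all 4 hybrid arrays than on both unfused arrays. Each of these lists overlapped between hybrid and unfused arrays on the other slide. The neutrophil and microglia lists, like the myeloid and broad member lists, overlapped on neither slide. The mean level of 16 neutrophil markers, without S100 genes, was −3.72 to −2.77 on the hybrid arrays of slide 1, against −2.60 to −2.15 on the unfused arrays. On slide 2 it was −3.41 to −2.51 on hybrid arrays, against −2.00 to −1.78 on unfused arrays. Of these 16, 12 to 14 were well above background on each hybrid array of slide 1 and 14 to 15 on each unfused array, and 5 to 7 on the hybrid arrays of slide 2, against 9 to 11 on the unfused arrays. The differences of 10 of 16 were below 0 over all hybrids, with 13 in R26Y, 12 in GFAP-Cre and 9 in FoxA2-Cre hybrids. Their median over all hybrids was −0.35, beside 0.03 for all genes. Of all genes, 47.8% were below 0 over all hybrids, and 64.2%, 46.6% and 36.5% in R26Y, GFAP-Cre and FoxA2-Cre hybrids. Mpo, the myeloperoxidase gene, differed by −4.31 ± 1.05 in R26Y hybrids and −3.86 ± 1.05 in GFAP-Cre hybrids (SE). On R26Y hybrid replicate 2, at −7.35, Mpo was not well above background. In FoxA2-Cre hybrids Mpo was not well above background on either array and was at least 60.5-fold lower by the background bound. It was the 1 neutrophil marker of 16 past the threshold, in FoxA2-Cre hybrids (limma adjusted p = 0.026), beside 0.53% of all genes called there. With the slide row block, the slide column block or slide 2 alone, 0 genes were called in FoxA2-Cre hybrids. Camp and Lcn2, genes of neutrophil granules, differed by −3.57 ± 0.95 and −2.13 ± 0.66 over all hybrids.

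The mean level of 12 microglia markers was −3.19 to −2.19 on the hybrid arrays of slide 1, against −3.40 to −3.24 on the unfused arrays, and −1.73 to −1.53 on the hybrid arrays of slide 2, against −2.89 to −2.81. Of these 12, 9 to 12 were well above background in R26Y hybrids and all 12 in GFAP-Cre hybrids and pooled unfused cells. On slide 2 this held for 5 to 9 on the hybrid arrays, against 7 to 9 on the unfused arrays. The differences of 3 of 12 were below 0 over all hybrids, with 5 in R26Y, 1 in GFAP-Cre and 3 in FoxA2-Cre hybrids. Their median over all hybrids was 0.49, beside 0.03 for all genes. Of all genes, 47.8% were below 0 over all hybrids, and 64.2%, 46.6% and 36.5% in R26Y, GFAP-Cre and FoxA2-Cre hybrids. No microglia marker passed the threshold. Trem2 and Cx3cr1 differed by 3.96 ± 1.65 and 1.62 ± 0.58 over all hybrids. For both genes the hybrid and unfused arrays overlapped on slide 1. The Trem2 value rests on unlike replicates: −3.07 and 3.03 in R26Y hybrids, and −4.36 and 3.19 in FoxA2-Cre unfused cells. For the 8 monocyte and macrophage markers the mean level was −4.42 to −2.42 in R26Y hybrids, −2.54 to −2.13 in GFAP-Cre hybrids and −2.14 to −2.00 in pooled unfused cells. It was −3.73 to −2.95 in FoxA2-Cre hybrids, against −3.72 to −1.70 in FoxA2-Cre unfused cells. No marker of the remaining cell type lists passed the threshold in any comparison.

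The genes whose pattern was most like that of S100a8 and S100a9 were ranked by Pearson's r over the 10 arrays after removing each slide's mean, among 20939 genes with a symbol. For S100a8 these were Hdgfrp3 (r = 0.98), Rpl39 (0.97), Naca (0.97), Virma (0.97) and Itgb2 (0.97). For S100a9 they were Sharpin (0.97), Cpsf6 (0.97), Nsun7 (0.96), Serpina3f (0.96) and Lrit3 (0.95). S100a8 and S100a9 themselves had r = 0.63, and S100a13 was the member closest to S100a9, at 0.93. The arrays share slides and differ in how many spots were measured, and for S100a8 the points farthest from their slide's mean were FoxA2-Cre unfused replicate 1 and R26Y hybrid replicate 2.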

How the data were processed

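Cells of 10 arrays in 5 groups were compared. Total RNA was amplified to cDNA and 500 ng of double-stranded cDNA was labelled with Cy3, per the labels' protocols, so a probe's signal does not separate strands. The authors deposited, per the file headers, the intensity table of each array from Agilent Feature Extraction 10.7.3.1, with a processed signal that Feature Extraction had background-subtracted and spatially detrended, and with marks of spot quality. They also deposited a matrix of log2 values, whose ranks on each array equal those of the mean spot signal less the local background; the tool behind it is not given in the sources used here, and it served as an alternative.

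Log2 of the processed signal minus the array's 75th percentile was used, with the percentile taken over the 9510 spots measured on every array. Non-uniform spots were left out, a probe had to be measured (well above background) on 2 or more arrays, and a gene was represented by its brightest probe. Of 55681 probes, 27428 matched a RefSeq accession, which changed 2788 names, and the names of the other 28253 were left as deposited. Probe positions are on mm9, as in the files, and RefSeq positions on GRCm38.p6. limma 3.58.1 in R 4.3.3 fitted 5 group means with a shared spread, and all hybrids against all unfused cells with slide as a covariate, with Benjamini-Hochberg adjustment over 32236 genes at 0.05. It was tested on simulated data. A group not well above background on either array is given as "at least N-fold" against the array's lowest signal well above background, or the measured value where that was higher. The number of arrays limits the precision, and p-values measure the spread between samples of 2 pooled mice. Alternatives were normexp (offset 50), quantile normalization, another percentile, the authors' matrix, other filters (at least 5 arrays, or none), the mean of all probes, array weights, row, column and replicate blocks, single slides and leaving out each array.

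The members and lists were chosen with earlier results of these data known. Named are all members and other S100 genes, up to 4 genes of each other list with the smallest p over all hybrids, and the 5 genes most like S100a8 and S100a9.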

Additional observations from a re-analysis of the deposited data

How the results depend on the processing

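Of the 6 differences of S100a8 and S100a9 in the 3 hybrid types, 5 kept their sign in every alternative run; the exception was S100a8 in FoxA2-Cre hybrids, at 0.26 without FoxA2-Cre unfused replicate 1. Of the 18 differences of the broad members, 14 changed sign in at least 1 alternative. The number of members called lower in FoxA2-Cre hybrids, 1 in the reported fit, was 0 with quantile normalization, the mean of all probes, array weights, the slide row block, the slide column block, the replicate block and the FoxA2-Cre slide alone, and 0 to 1 when 1 array was left out. It was 0 without either pooled unfused array, either GFAP-Cre hybrid array or either FoxA2-Cre unfused array, and without FoxA2-Cre hybrid replicate 1 the 1 member called was S100a11 and not S100a9. Over 23 alternatives S100a9 passed in 9, with a difference from −10.2 to −5.38. The difference of myeloid minus broad members in FoxA2-Cre hybrids, −4.81, was −7.13 to −2.50 when 1 array was left out. Genes called in FoxA2-Cre hybrids numbered 171, and 0 with either slide block or that slide alone, 66 with array weights, 106 with the replicate block, 268 without either R26Y hybrid array, 59 or 60 without a GFAP-Cre hybrid or pooled unfused array, and 331 to 558 without 1 of the 4 arrays of slide 2. Without R26Y hybrid replicate 1, 2314 genes were called in R26Y hybrids against pooled unfused cells and 2179 in GFAP-Cre against R26Y hybrids, where 0 were called otherwise; no member was among them. With array weights 1 gene was called over all hybrids. The cause of these changes was not tested. Taking the percentile over all probes moved R26Y differences by 0.33, GFAP-Cre differences by −0.03 and FoxA2-Cre differences by 0.04. It moved GFAP-Cre minus R26Y hybrid differences by −0.36, which turned S100a4 to −0.07 and S100a13 to −0.19. The correlation of deviations between replicates with the same number was −0.07 to 0.07, which does not show whether they shared mice. Setting values below background at the array's background level, chosen after seeing the data, left 1 member called, S100a9 at −7.65. On slide 2, 19.8% to 49.2% of spots were well above background, which limits what can be measured there.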
